A study of Mus musculus with 4 samples.

Results

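Rnase4, Ang, Rnaset2a, Rnaset2b and Rnh1, 4 genes for secreted ribonucleases and 1 for a ribonuclease inhibitor, are described in mouse pancreatic islets. They are 5 of the 32285 genes in the count tables and were chosen by name for their UMI levels in the same libraries, from earlier results of these data, so the levels and ratios below are descriptions and none is a test. Rnase4 and Ang (angiogenin) belong to the RNase A superfamily of small secreted enzymes that cut single-stranded RNA. Angiogenin also promotes the growth of blood vessels and, in stressed cells, cuts tRNA in the anticodon loop. Rnaset2a and Rnaset2b are mouse copies of the gene for RNase T2, an acid ribonuclease found in lysosomes and secreted from cells. Rnh1 is a cytosolic protein that binds and blocks enzymes of the RNase A superfamily but is not known to act on the T2 family.

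The series holds 4 samples of cultured islets of C57BL/6 mice, wild type or Malat1-/- and given DMSO or the dioxin TCDD, a ligand of the aryl hydrocarbon receptor. The comparison uses the 2 TCDD libraries, 1 of wild type and 1 of Malat1-/-, so both carry TCDD; the DMSO libraries were not analysed here and no effect of TCDD was measured. The labels give neither the dose and time of TCDD, nor the age and number of mice, nor how the allele was made. The sample labels name beta cells, but whole islets were dispersed, and cells were therefore classed by marker genes. With 1 library per genotype there are no replicates, no difference was tested, and a difference of genotype cannot be told apart from one of mice, culture or library. All intervals are exact 95% intervals for counting error only.

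The wild-type library held 81872519 unique molecular identifiers (UMIs, counted RNA molecules) and the Malat1-/- library 134950186. There were 2166 and 3198 barcodes of at least 1000 UMIs, of which 1 barcode sequence occurred in both libraries, and 2074 and 2905 cells remained after filters. Beta-like cells numbered 909 in wild type and 1765 in Malat1-/-, and all 10 beta markers reached at least 20 CPM (UMIs of a gene scaled to the total of its class) in every beta-like cluster. The other classes compared were alpha-like (32 and 66 cells), delta-like (21 and 40), endothelial-like (87 and 39), T- or NK-like (295 and 157) and B-cell-like (193 and 310). PP-like, ductal-like and mesenchymal-like cells were described in wild type only, since the Malat1-/- library had fewer than 20 of each, and 108 and 444 cells stayed unnamed. Malat1 stood at 9089 CPM in wild-type beta-like cells and at 0.296 CPM (26 UMIs) in Malat1-/- ones, as the labels say. Acinar-like cells (246 and 34) are given by level only: 61.7% of 519 genes were past the fold limit on the lower side in Malat1-/- and 3.08% on the higher side, with a median log2 ratio of -1.18, and of the 5 genes Rnh1 alone had the minimum level there.

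Rnase4 (ENSMUSG00000021876; GRCm38, chr14:51091077-51106151, plus strand) and Ang (ENSMUSG00000072115; chr14:51091150-51102009, plus strand) overlap on the same strand. In the GENCODE M21 annotation each gene has 2 protein-coding transcripts of 2 exons, and a first exon of Rnase4 overlaps a first exon of Ang at either start, 219 exonic bases in all. The last exons do not overlap and lie 2797 bases apart. The assay counts molecules near the 3′ end of the RNA, and no 90-base stretch of the last 400 bases was common to transcripts of both genes, so their UMIs can be told apart. RefSeq (GRCm38.p6) gives both genes a start with the same 300-base promoter window around the start. It is printed because the genes share it while their levels below part, with the letters GCGTG, the core of the element bound by the aryl hydrocarbon receptor, in capitals (chr14:51090827-51091126, plus strand).
Rnase4 and Ang: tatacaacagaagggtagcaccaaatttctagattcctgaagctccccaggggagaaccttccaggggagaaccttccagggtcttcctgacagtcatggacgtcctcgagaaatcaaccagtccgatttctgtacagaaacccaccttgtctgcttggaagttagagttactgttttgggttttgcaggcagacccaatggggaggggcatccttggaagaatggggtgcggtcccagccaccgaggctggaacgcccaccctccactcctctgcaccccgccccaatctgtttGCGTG

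**Figure D1:**
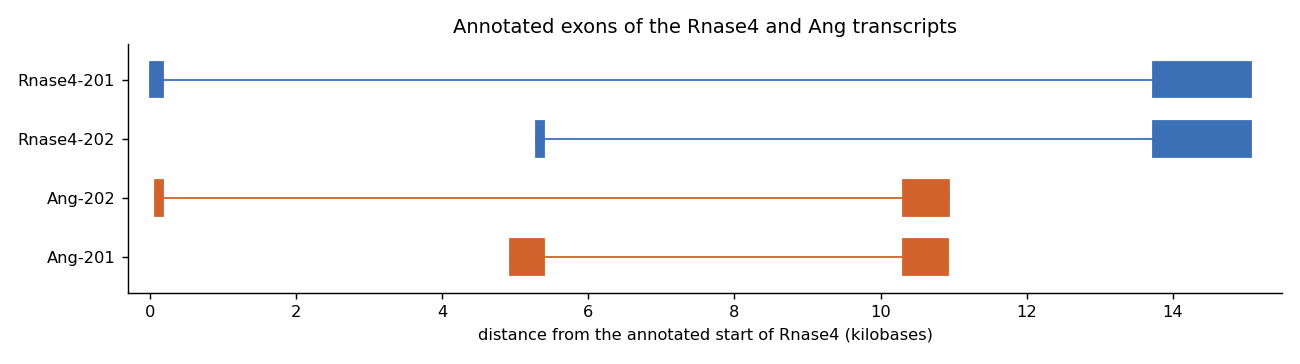
Annotated exons (boxes) and introns (lines) of the Rnase4 and Ang transcripts, by distance in kilobases from the annotated start of Rnase4. First exons of the genes overlap at both starts, and the last exons, where molecules are counted, are 2797 bases apart.

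Rnaset2a (ENSMUSG00000095687; chr17:8115445-8148097, minus strand) and Rnaset2b (ENSMUSG00000094724; chr17:6970634-7011299, plus strand) are copies that share long stretches of sequence. Over whole transcripts, 65.8% of the 90-base stretches of Rnaset2a occur in Rnaset2b transcripts, and 61.1% of those of Rnaset2b occur in Rnaset2a. For stretches from the last 400 bases of each transcript, these shares are 50.2% and 65.3%. The split of reads between the copies is therefore uncertain, and their sum is given beside each. Their promoter windows overlap by 255 aligned bases, of which 254 are identical, and the remaining base is A102G, counted from 1 at the 5′ end of the Rnaset2a window, with the base of Rnaset2a first. They are printed because these genes moved together below; RefSeq lists a further start for Rnaset2a, as it does for Rnase4. The windows are chr17:8147738-8148037 (minus strand) for Rnaset2a and chr17:6978610-6978909 (plus strand) for Rnaset2b, again with GCGTG in capitals.
Rnaset2a: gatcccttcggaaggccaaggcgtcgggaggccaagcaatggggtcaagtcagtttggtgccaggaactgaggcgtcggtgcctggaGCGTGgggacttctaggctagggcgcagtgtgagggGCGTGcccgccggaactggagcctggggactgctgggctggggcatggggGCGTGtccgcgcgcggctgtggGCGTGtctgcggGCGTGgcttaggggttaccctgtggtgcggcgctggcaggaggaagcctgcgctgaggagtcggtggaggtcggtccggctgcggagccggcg
Rnaset2b: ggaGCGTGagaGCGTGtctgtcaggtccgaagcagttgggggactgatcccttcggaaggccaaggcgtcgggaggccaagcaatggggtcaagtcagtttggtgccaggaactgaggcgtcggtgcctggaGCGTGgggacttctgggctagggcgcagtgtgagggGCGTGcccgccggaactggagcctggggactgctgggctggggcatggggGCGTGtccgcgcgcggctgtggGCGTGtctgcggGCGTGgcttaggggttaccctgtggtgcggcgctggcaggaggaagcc

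The search for GCGTG covered both strands. Among the printed windows it occurs 1 time in the window shared by Rnase4 and Ang, 5 times in that of Rnaset2a and 7 times in that of Rnaset2b, always on the gene's strand. The 5 matches of Rnaset2a lie in the stretch aligned between the copies and recur among the 7 of Rnaset2b. The further window of Rnaset2a has 1 match and that of Rnase4 has 0, and there is none in the 3 windows of Rnh1 (ENSMUSG00000038650; chr7:141160326-141172857, minus strand). Of the 32544 distinct promoter windows, 32.6% hold at least 1 match, and the share with 5 or more was not counted. A match describes the letters only.

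In wild type, Rnase4 and Ang had their highest levels in alpha-like and beta-like cells, and Rnaset2a and Rnaset2b had theirs in delta-like and T- or NK-like cells. Rnase4 was highest in alpha-like cells at 728 CPM (interval 671 to 789), ahead of beta-like cells at 316 CPM (311 to 320), and those intervals do not overlap. PP-like cells followed at 77.9 CPM and delta-like cells at 57.7 CPM, which do not differ from each other beyond counting error. Endothelial-like cells were at 60.3 CPM, but 76 of their 85 UMIs came from 1 cell, and without it 9 UMIs gave 6.75 CPM. Rnase4 was at 31.3 CPM in mesenchymal-like, 12.9 in acinar-like and 6.60 in ductal-like cells, and it was nearly absent from B-cell-like and T- or NK-like cells, with 3 and 2 UMIs. Ang had the same leading order, with 274 CPM (240 to 313) in alpha-like and 120 CPM (117 to 123) in beta-like cells, then 40.4 CPM in delta-like, 39.4 in PP-like and 33.3 in acinar-like cells, whose intervals overlap. No other class was above 10.6 CPM of Ang, the level of endothelial-like cells, where 14 of 15 UMIs came from 1 cell.

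Free RNA in the suspension can add to these levels, though its own CPM are not a level that every cell must exceed. Barcodes of 1 to 100 UMIs, which hold mostly free RNA, had 242 CPM of Rnase4 in the wild-type library and 379 CPM in the other, with Ins2 (insulin) at 214409 and 409528 CPM. They had 82.6 and 91.5 CPM of Ang, 67.9 and 50.3 of Rnaset2a, 40.3 and 24.0 of Rnaset2b and 104 and 86.1 of Rnh1. In Malat1-/- those values of Ang, Rnaset2a, Rnaset2b and Rnh1 were above the levels of beta-like cells (83.1, 45.1, 22.6 and 65.1 CPM). In wild type the value of Rnh1 was too (66.9 CPM in beta-like cells). The level of Rnase4 in wild-type T- or NK-like cells was 1.13 CPM with 1236 CPM of Ins2. At the ratio of Rnase4 to Ins2 in wild-type beta-like cells that Ins2 would bring 2.07 UMIs of Rnase4, and 2 were counted. In wild-type alpha-like cells the same reckoning gives 1.05 of 595 UMIs, and in delta-like cells 0.534 of 30.

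**Figure D2:**
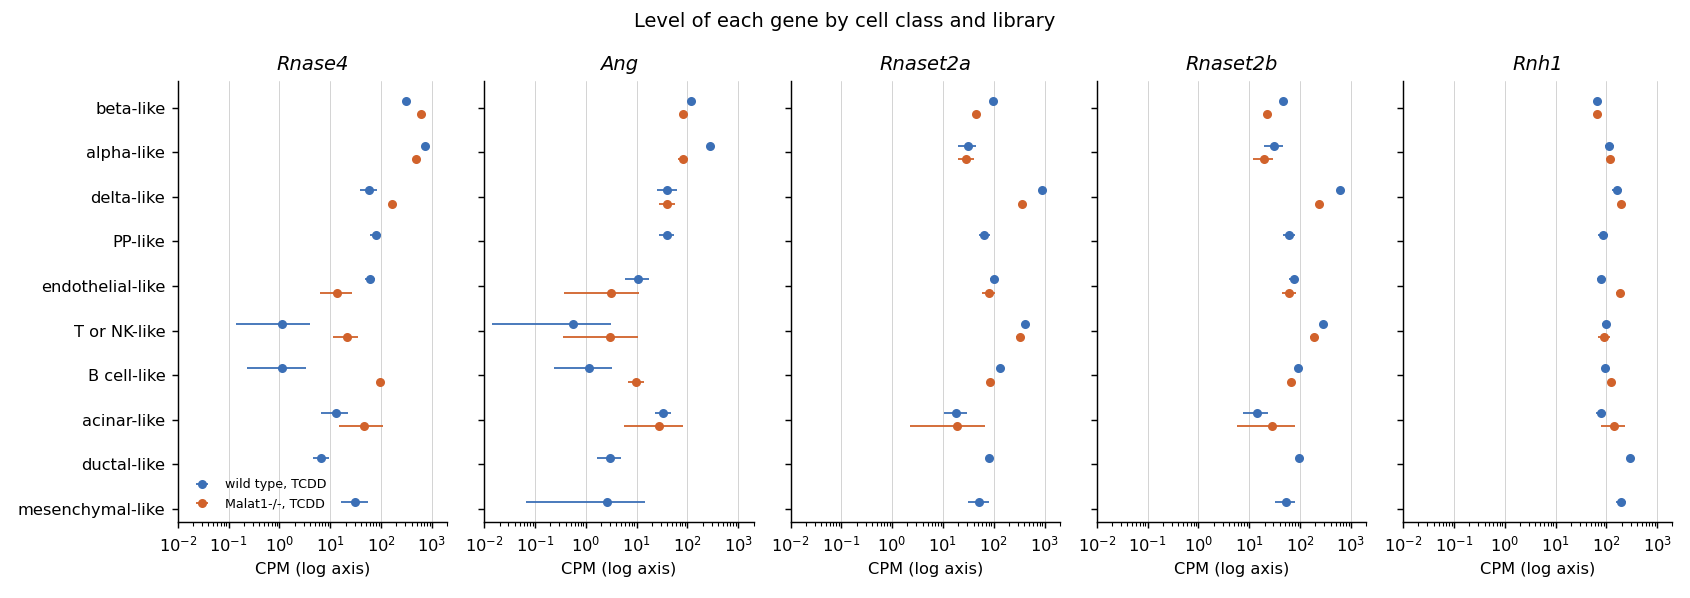
Level of each gene in CPM on a log axis, by cell class, in the wild-type (blue) and Malat1-/- (orange) TCDD libraries; points are summed UMIs and bars exact 95% counting intervals, with classes of at least 20 cells in the library. Rnase4 and Ang lead in alpha-like and beta-like cells, Rnaset2a and Rnaset2b in delta-like and T- or NK-like cells, and Rnh1 is within 66.9 to 287 CPM in every wild-type class.

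In beta-like cells the Malat1-/- library had more Rnase4 and less of Ang, Rnaset2a and Rnaset2b, with Rnh1 nearly level. Wild-type beta-like cells had 316 CPM of Rnase4 (19296 UMIs) against 604 CPM (52951 UMIs) in Malat1-/-, a ratio of 1.91 (1.88 to 1.94). Ang stood at 120 CPM (7325 UMIs) and 83.1 CPM (7291 UMIs), a ratio of 0.693 (0.671 to 0.716). Rnase4 and Ang, whose first exons overlap and which have a promoter window in common, thus differed in opposite directions.

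To be called, a gene needed 50 CPM or more in 1 library, 50 UMIs or more in the pair, and a ratio past 1.5-fold whose interval excludes 1. Of the 1653 genes with those minimums in beta-like cells, 27 were called higher in Malat1-/- (1.63%) and 34 lower (2.06%), and the median log2 ratio was 0.03. Among these 1653, Rnase4 was called higher and had the 7th highest ratio; Rnaset2a was called lower and had the 16th lowest, while Ang and Rnh1 were not called and Rnaset2b was under the minimum level. These shares are given as background only, since the genes were chosen with this contrast known. CPM were scaled with TMM factors; scaling by total counts moves every log2 ratio in beta-like cells by -0.19 and gives 9 genes higher and 75 lower. With that scaling Rnase4 had a log2 ratio of 0.74 and Ang one of -0.72, which is past the 1.5-fold limit; Ang also passed it with a minimum of 5000 UMIs per barcode (-0.65) and with the mean of per-cell CPM (-0.64).

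The ratio of Rnase4 to Ang UMIs within a library does not depend on scaling. In beta-like cells there were 2.63 Rnase4 UMIs per Ang UMI (2.56 to 2.71) in wild type and 7.26 (7.09 to 7.44) in Malat1-/-, a change of 2.76-fold (Woolf interval 2.66 to 2.86). In alpha-like cells the ratio was 2.66 (2.27 to 3.11) and 5.80 (4.62 to 7.34), a change of 2.18-fold (1.66 to 2.87), though the libraries filled different alpha-like clusters. In the 1 alpha-like cluster that both filled, there were 595 Rnase4 and 224 Ang UMIs in wild type against 136 and 8 in Malat1-/-. In delta-like cells it was 1.43 (0.791 to 2.63) and 4.12 (2.81 to 6.18), a change of 2.88-fold (1.47 to 5.64). The ratio was therefore higher in the Malat1-/- library in each of the 3 hormone-cell classes where it could be compared, and the intervals of the 3 changes overlap.

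**Figure D3:**
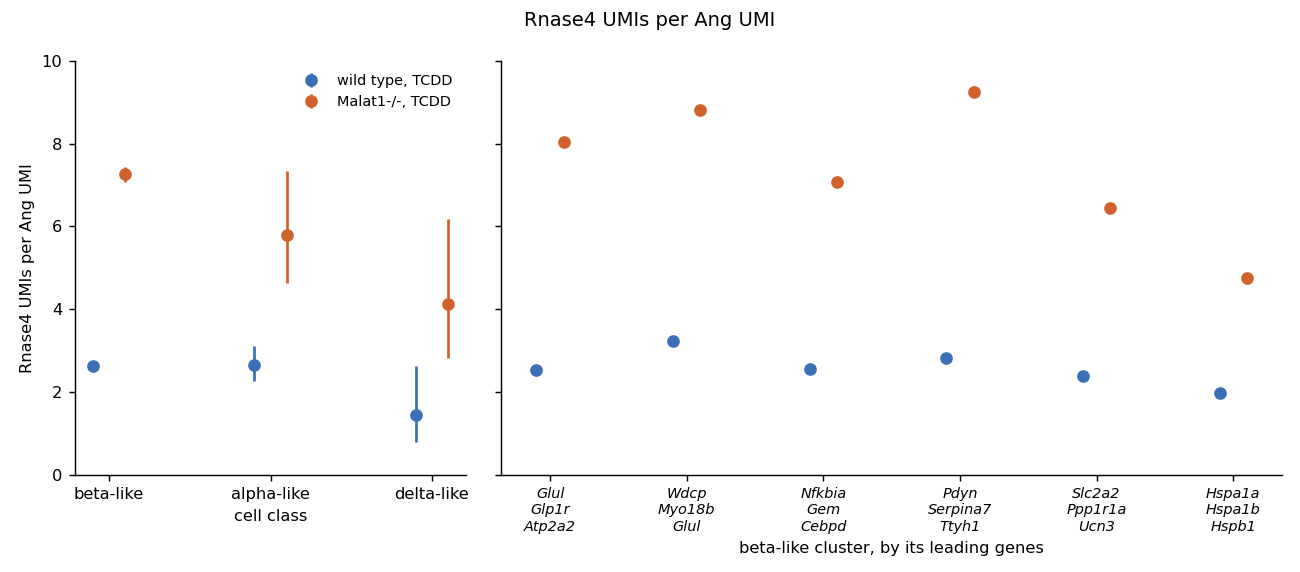
Rnase4 UMIs per Ang UMI in the wild-type (blue) and Malat1-/- (orange) TCDD libraries, by cell class with exact 95% counting intervals (left) and in each beta-like cluster, named by its leading genes (right). Wild type lies between 1.97 and 3.22 and Malat1-/- between 4.76 and 9.26 in the 6 beta-like clusters. The right panel has no intervals, and the cluster led by Wdcp, at 3.22 in wild type, had 20 wild-type and 4 Malat1-/- cells.

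The libraries filled the beta-like clusters unequally. A cluster led by Glul, Glp1r and Atp2a2 held similar shares, 26.2% of wild-type and 22.3% of Malat1-/- beta-like cells, while the others differed. A cluster led by Pdyn, Serpina7 and Ttyh1 held 44.3% and 11.4%, and one led by Slc2a2, Ppp1r1a and Ucn3 held 7.04% and 33.3%. One led by Nfkbia, Gem and Cebpd held 6.93% and 29.5%, and one led by Hspa1a, Hspa1b and Hspb1 held 13.3% and 3.40%. The last, led by Wdcp, Myo18b and Glul, held 2.20% and 0.227%, with 4 Malat1-/- cells. Within each of the 5 clusters with at least 20 cells in both libraries, Rnase4 was higher in Malat1-/-, with ratios of 1.48 to 2.68. Rnaset2a was lower in 5 of 5 (ratios of 0.397 to 0.507) and Rnaset2b in 5 of 5 (0.385 to 0.692). Ang was lower in 4 of 5, and its highest ratio, 1.11 (0.914 to 1.33), was in the cluster led by the heat-shock genes Hspa1a, Hspa1b and Hspb1; scaled by total counts Ang was at 54.7 and 49.5 CPM there, so that the direction turned. That cluster, with 121 and 60 cells, had the lowest Rnase4 of the beta-like clusters in both libraries, 107 and 236 CPM scaled by total counts. Rnase4 was highest there in wild type in the 20 cells of the cluster led by Wdcp, Myo18b and Glul, at 578 CPM, and in Malat1-/- in the Pdyn cluster, at 924 CPM.

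Cell by cell, the difference in Rnase4 ran through the whole range of beta-like cells. After each cell was thinned to 20000 UMIs (868 and 1633 cells, 41 and 132 shallower ones left out), a wild-type beta-like cell had 0 to 59 Rnase4 UMIs (median 5), and a Malat1-/- cell had 0 to 82 (median 9). The upper quartile was 10 UMIs for wild type and 17 for Malat1-/-. Cells without an Rnase4 UMI were 6.45% and 2.02%, and the variance was 6.83 and 10.7 times the mean. Ang had medians of 2 and 1 UMIs, and 17.9% and 29.9% of cells had none. Rnaset2a had medians of 2 and 1, with none in 18.4% and 46.5% of cells, and Rnh1 had a median of 1 in both, with none in 29.4% and 32.5%. The distributions of the libraries overlap for every gene.

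**Figure D4:**
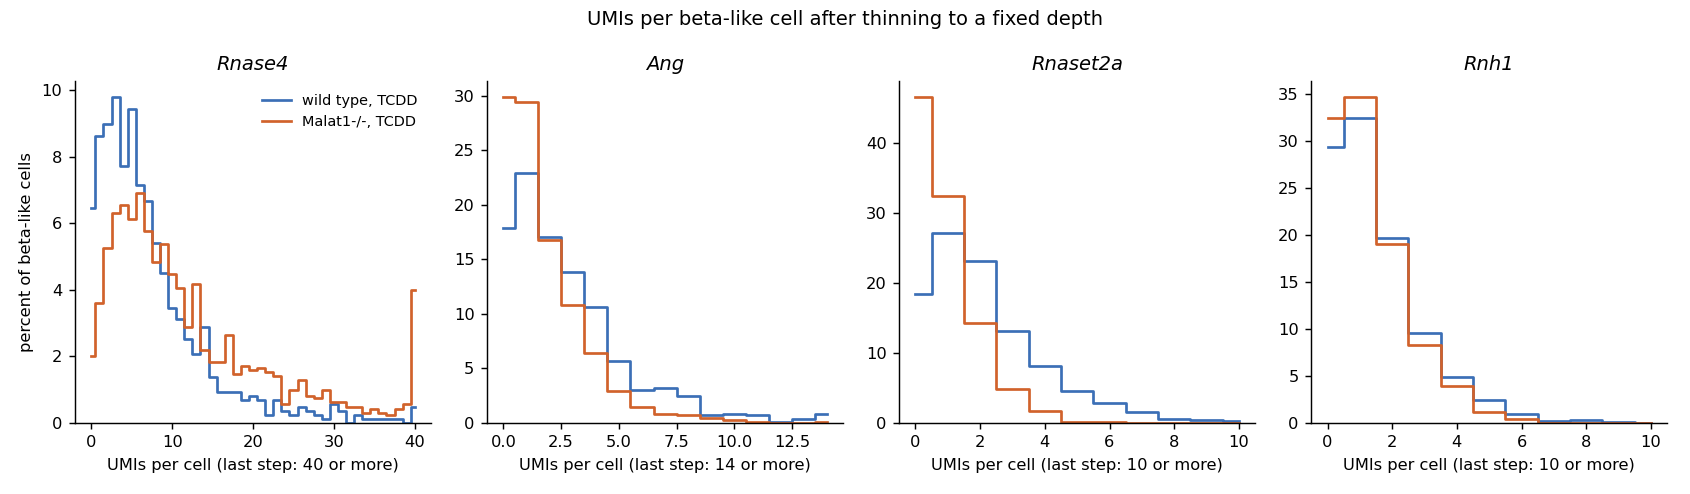
Percent of beta-like cells with each number of UMIs of Rnase4, Ang, Rnaset2a and Rnh1 after thinning every cell to 20000 UMIs, in the wild-type (blue, 868 cells) and Malat1-/- (orange, 1633 cells) TCDD libraries; the last step pools all higher numbers. Rnase4 is shifted to more UMIs in Malat1-/- (median 9 against 5), Rnaset2a to fewer (1 against 2), and the Rnh1 curves nearly coincide.

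In alpha-like cells, which make glucagon, both genes were lower in Malat1-/-. Rnase4 stood at 728 CPM and 477 CPM, a ratio of 0.655 (0.581 to 0.739), and Ang at 274 CPM and 82.3 CPM, a ratio of 0.300 (0.232 to 0.385). Both were called lower, as were 5.44% of the 2943 genes with the minimum level, while 6.8% were called higher. For Rnase4 the call was lost with total-count scaling (log2 ratio -0.48), with hormone, mitochondrial and Malat1 UMIs left out of the library size (-0.57) and with the mean of per-cell CPM (-0.51). The libraries filled different alpha-like clusters: all 32 wild-type cells lay in one led by Gcg, Ttr and Gpx3, with 14 Malat1-/- cells, and the other 52 Malat1-/- cells lay in a separate alpha-like cluster. Within the shared cluster, scaled by total counts, the 32 wild-type cells had 697 CPM of Rnase4 against 798 CPM in the 14 Malat1-/- cells, and 262 CPM of Ang against 46.9 CPM, so that the direction for Rnase4 turned and that for Ang did not. Markers of acinar cells also differed in alpha-like cells, at 817 and 66.6 CPM in sum, and their part in the result was not tested.

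In delta-like cells, which make somatostatin, Rnase4 had 57.7 CPM (30 UMIs) in the wild-type library against 166 CPM (140 UMIs), a ratio of 2.88 (1.93 to 4.43). Ang was at 40.4 CPM in both, with a ratio of 1.00 (0.564 to 1.81). In this class 5.48% of 3176 genes were called higher, Rnase4 among them, and 4.28% lower. Ins2 was at 1089 and 3813 CPM there; at the beta-like ratio of Rnase4 to Ins2 it would bring 4.45 of the 140 UMIs in Malat1-/-. Markers of alpha cells, the class highest in Rnase4, summed to 290 and 3404 CPM in delta-like cells, with 2 of 8 and 0 of 8 at 0, and their part in the result was not tested.

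Rnase4 was low in wild-type endothelial-like, B-cell-like and T- or NK-like cells, and in the first and second of these the ratio moved by more than 1.5-fold without cells rich in insulin. In wild-type endothelial-like cells 85 UMIs gave 60.3 CPM against 13.8 CPM (9 UMIs) in Malat1-/-, a ratio of 0.229 (0.101 to 0.456), called lower with 11.1% of the 3929 genes of that class. Of these 85 UMIs, 76 came from 1 of 87 cells. Without the cells that had Ins2 above 2% of their UMIs, a limit set after the insulin levels had been seen, 9 and 8 UMIs were left and the ratio was 1.90 (0.638 to 5.55). In B-cell-like cells Rnase4 had 3 UMIs in wild type and 321 in Malat1-/-, a ratio of 84.9 (28.8 to 414), called higher with 8.82% of the 2483 genes. Those 321 UMIs lay in 31 of 310 cells, 181 of them in 3 cells, and Ins2 stood at 706 and 51570 CPM. At the ratio of Rnase4 to Ins2 in Malat1-/- beta-like cells, that Ins2 would bring 239 of the 321 UMIs. Without the 63 Malat1-/- cells above the insulin limit 16 UMIs remained, with a ratio of 5.35 (1.53 to 28.6). In T- or NK-like cells 2 UMIs in wild type and 14 in 13 Malat1-/- cells were counted, with Ins2 at 1236 and 15629 CPM. By the same reckoning that Ins2 would bring 14.5 UMIs of Rnase4 in Malat1-/-. Without the 53 Malat1-/- cells above the limit 2 and 7 UMIs gave a ratio of 12.6 (2.39 to 124). The part of RNA from insulin cells in the ratios of these 2 classes was not tested.

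Thinned to 2000 UMIs per cell, Rnase4 was detected in 44.8% of wild-type beta-like cells (41.6 to 48.2%) and 59.98% of Malat1-/- ones (57.6 to 62.3%), and in 68.8% and 65.2% of alpha-like cells. In T- or NK-like cells, which should lack it, the shares were 0% (0 to 1.26%) and 1.41% (0.171 to 4.995%). Unthinned, 96.8% and 98.1% of beta-like cells and 0.678% and 8.28% of T- or NK-like cells had an Rnase4 UMI, at medians of 61114 and 48079 UMIs per beta-like cell and 5107 and 3399 per T- or NK-like cell.

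Rnaset2a and Rnaset2b were lower in Malat1-/- in delta-like and beta-like cells, together by 2.48-fold and 2.13-fold. In wild type Rnaset2a was at 891 CPM (811 to 976) in delta-like cells, 415 CPM (386 to 446) in T- or NK-like cells and 135 CPM (121 to 149) in B-cell-like cells, in that order without overlap, followed by endothelial-like (101 CPM) and beta-like cells (97.5 CPM), which do not differ beyond counting error. Alpha-like cells, the highest in Rnase4, had 30.6 CPM, and acinar-like cells 18.2. In delta-like cells Rnaset2a stood at 891 and 362 CPM, 2.46-fold lower in Malat1-/- (2.12 to 2.85), and Rnaset2b stood at 604 and 240 CPM, a ratio of 0.397 (0.331 to 0.476); both were called. In beta-like cells Rnaset2a stood at 97.5 and 45.1 CPM, 2.16-fold lower (2.08 to 2.25), and Rnaset2b at 46.6 and 22.6 CPM, 2.06-fold lower (1.95 to 2.19). The interval of the sum's fold was 2.22 to 2.78 in delta-like cells and 2.06 to 2.20 in beta-like cells.

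Other cells differed less in the RNase T2 genes. In B-cell-like cells the sum was 1.51-fold lower in Malat1-/- (1.34 to 1.71), with Rnaset2a, at 135 and 83.8 CPM, called lower among 9.75% of genes and Rnaset2b, with a ratio of 0.715, not. Without the cells above the 2% Ins2 limit the ratio of Rnaset2a was 0.682 (0.577 to 0.805), which is no longer past the fold limit; neither were its log2 ratios of -0.51 with a minimum of 5000 UMIs per barcode and -0.45 with the libraries clustered alone. In T- or NK-like cells the sum was 1.35-fold lower (1.198 to 1.53), and neither copy was called, where 6.64% of 2998 genes were called lower and 6.37% higher; 53 of the 157 Malat1-/- cells were above the Ins2 limit. Rnaset2b passed the fold limit there with total-count scaling (log2 ratio -0.59), and Rnaset2a with a minimum of 5000 UMIs per barcode (-0.60). In endothelial-like cells the sum was 1.25-fold lower with an interval of 0.977 to 1.60, and in alpha-like cells 1.27-fold lower with one of 0.846 to 1.91, both of which include 1. Markers of delta cells, summed over 6 genes, stood at 40.3 and 63.5 CPM in the beta-like cells of wild type and Malat1-/-. Of these sums Frzb alone had 35.3 and 51.7 CPM. Markers of T or NK cells, summed over 11, stood at 0.818 and 0.479 CPM there. Acinar markers were lower in Malat1-/- in beta-like (222 and 36.9 CPM), delta-like (777 and 216 CPM), B-cell-like (1165 and 138 CPM) and T- or NK-like cells (2699 and 195 CPM). The 12 ductal markers summed to 1448 and 870 CPM in beta-like cells, with Spp1 alone at 572 and 82.9 CPM. Krt7 stood at 274 and 258 CPM there and Krt18 at 162 and 164 CPM, and 3 of the 12 were higher in Malat1-/-. The part of acinar and ductal markers in the result was not tested. In delta-like cells 11 of 11 T or NK markers were at 0 in wild type and 10 of 11 in Malat1-/-.

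The balance of the copies was nearly the same in the 2 libraries and differed between classes. There were 2.09 Rnaset2a UMIs per Rnaset2b UMI (2.00 to 2.19) in wild-type and 2.00 (1.89 to 2.11) in Malat1-/- beta-like cells, and 1.47 (1.27 to 1.71) and 1.51 (1.26 to 1.81) in delta-like cells. T- or NK-like cells had 1.49 and 1.68, B-cell-like cells 1.46 and 1.27, and the interval of the change between libraries included 1 in each of the 6 compared classes. Wild-type ductal-like cells had more Rnaset2b than Rnaset2a, with 0.813 per UMI (0.710 to 0.930). How reads that fit both copies were counted is not given in the sources used here.

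Thinned to 2000 UMIs, Rnaset2a was detected in 81.0% of wild-type (58.1 to 94.6%) and 60% of Malat1-/- delta-like cells (43.3 to 75.1%), in 55.0% and 45.1% of T- or NK-like cells, and in 18.2% and 7.89% of beta-like cells. The intervals of the delta-like shares overlap, with 21 and 40 cells. In alpha-like cells, which had the lowest level of the hormone cells, the shares were 6.25% and 4.55%. Unthinned, the shares of delta-like cells with an Rnaset2a UMI were 100% and 95% at medians of 25259 and 16969.5 UMIs.

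Rnh1 was found in every class, and of the 6 compared classes it was called in endothelial-like cells alone. In wild type it was highest in ductal-like cells at 287 CPM (273 to 303), then 195 CPM in mesenchymal-like and 163 CPM in delta-like cells, whose intervals overlap, and lowest in beta-like cells at 66.9 CPM (64.8 to 69.0). In beta-like cells it was at 66.9 and 65.1 CPM, a ratio of 0.973 with an interval of 0.935 to 1.01 that includes 1; scaled by total counts its log2 ratio was -0.23, and with a minimum of 5000 UMIs per barcode it turned to 0.071. The ratio was 1.02 (0.776 to 1.35) in alpha-like, 1.19 (0.911 to 1.57) in delta-like and 0.928 (0.680 to 1.25) in T- or NK-like cells. In B-cell-like cells it was 1.32 (1.13 to 1.55), under the 1.5-fold limit; with a minimum of 5000 UMIs per barcode its log2 ratio was 0.67, past that limit. In endothelial-like cells Rnh1 stood at 80.1 CPM (113 UMIs) and 184 CPM (120 UMIs), a ratio of 2.30 (1.76 to 3.00), called higher as were 9.34% of genes in that class, and 2.43 (1.85 to 3.21) without cells above the insulin limit.

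**Figure D5:**
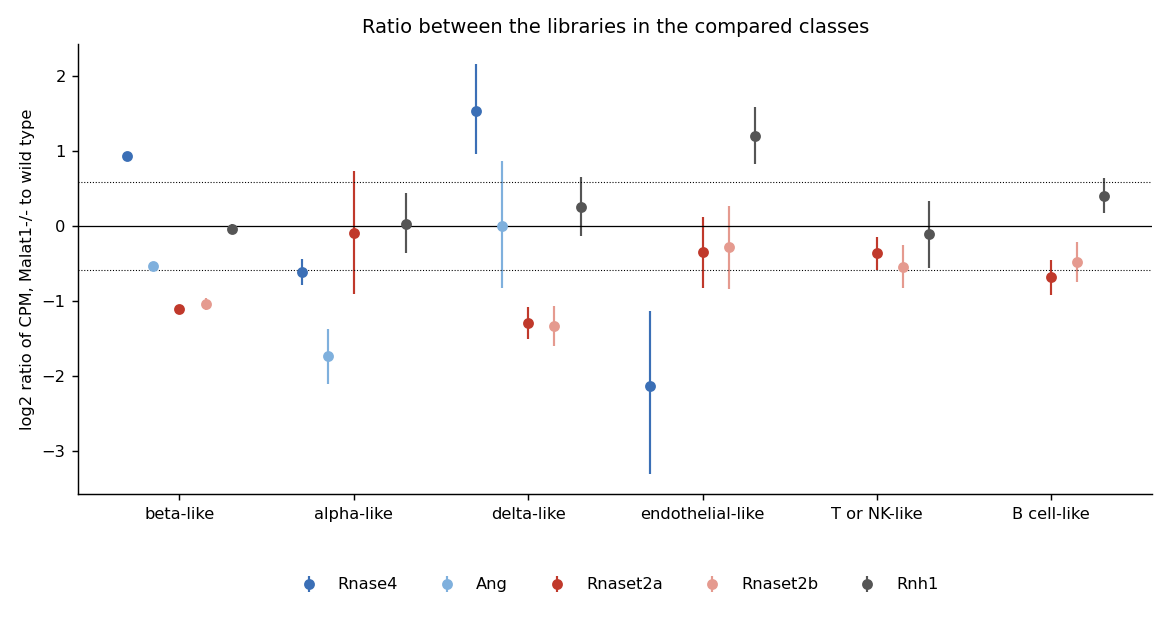
Log2 ratio of CPM, Malat1-/- to wild type, of each gene in the compared classes, with exact 95% counting intervals, for genes with at least 50 UMIs over both libraries and more than 3 in each; dotted lines mark 1.5-fold. Rnase4 is above 0 in beta-like and delta-like cells and below 0 in alpha-like cells, where the direction turned within a shared cluster. It is also below 0 in endothelial-like cells, where 76 of 85 wild-type UMIs came from 1 cell. Rnaset2a and Rnaset2b are below 0 in every class shown. Their intervals include 0 in endothelial-like cells, as does that of Rnaset2a in alpha-like cells, where Rnaset2b is not drawn.

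No other gene of the RNase A superfamily was measured in beta-like, alpha-like, delta-like or endothelial-like cells: of 16 listed, 0 met the minimum level. Rnase1, the pancreatic digestive ribonuclease, was at 7687 CPM in wild-type acinar-like cells and 2.52 CPM in wild-type beta-like cells, and barcodes of 1 to 100 UMIs had 666 CPM of it in wild type and 36.6 in Malat1-/-. Rnase6, a ribonuclease of white blood cells, reached 98.0 CPM in wild-type B-cell-like cells.

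Few listed genes that act with these enzymes met the minimum level in beta-like cells, and of all genes 1.63% were called higher and 2.06% lower, so counts of 0 in lists this short are no result. Of 14 genes of angiogenin action and tRNA cleavage 8 met the minimum and 0 were called, with a median log2 ratio of 0.00 against 0.03 for all genes. Plxnb2, the angiogenin receptor, was at 61.6 and 61.0 CPM. Ybx1, an RNA-binding protein of stress granules (258 and 238 CPM), Ncl, or nucleolin (184 and 193 CPM), and Eif4a1, a helicase of translation initiation (150 and 146 CPM), had the highest levels of the list. Of 34 other ribonucleases 3 met the minimum and 0 were called: Rnasek at 255 and 243 CPM, Isg20 at 74.8 and 73.6 CPM and Cnot6l at 70.4 and 76.8 CPM. Of 30 lysosomal proteins 13 met the minimum, 0 were called, and the median log2 ratio was 0.04. Cd63, a membrane protein of late endosomes, was at 985 and 709 CPM, Psap at 301 and 335 CPM and Ctsb at 223 and 181 CPM. Of 14 genes for lysosomal handling and sensing of nucleic acids Lamp2 alone met the minimum, at 159 and 125 CPM.

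The counts of list genes called in alpha-like and delta-like cells were near the shares over all genes, which were 6.8% higher and 5.44% lower in the former and 5.48% higher and 4.28% lower in the latter, and are given as a description. In alpha-like cells Plxnb2 was called lower, at 95.5 and 62.9 CPM, 1 of 10 measured genes of the angiogenin list. Of 16 measured lysosomal genes Ctsa (a protective carboxypeptidase, a ratio of 0.617) and Npc2 (a cholesterol carrier, 479 and 318 CPM) were called lower there. None of the 10 other ribonucleases measured was called. In delta-like cells Ctsh (cathepsin H, 125 and 52.3 CPM) was the 1 called of 16 lysosomal genes, and Pld3, a lysosomal exonuclease, was called higher at 137 and 221 CPM. Ncl was called higher at 292 and 476 CPM and the deadenylase gene Cnot6 lower at 51.9 and 28.5 CPM.

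In endothelial-like cells most of the measured lysosomal genes were higher in Malat1-/-. Of 18 13 were called higher and 0 lower, with a median log2 ratio of 0.78 against -0.01 for all genes of that class, of which 9.34% were called higher and 11.1% lower. Grn (progranulin) stood at 89.3 and 353 CPM, Hexa (a hexosaminidase subunit) at 35.4 and 124 CPM, Cd63 at 187 and 430 CPM, Ctsb (cathepsin B) at 272 and 588 CPM, Psap (prosaposin) at 138 and 295 CPM and Scarb2 (a lysosomal membrane receptor) at 42.5 and 90.5 CPM. Markers of macrophages, which are rich in lysosomes, summed to 47.5 and 117 CPM in these cells, with 8 of 12 and 3 of 12 at 0. In Malat1-/- 8 of the 12 were higher, among them Fcer1g (1.42 and 23.0 CPM), Ctss (1.42 and 19.9 CPM) and C1qb (0 and 16.9 CPM). Cd14 stood at 43.2 and 36.8 CPM, and Adgre1, Csf1r and Mrc1 were at 0 in both. The part of macrophage markers in the result was not tested. Markers of B cells (158 and 1737 CPM in sum), mesenchymal cells (2490 and 3841 CPM) and acinar cells (844 and 64.4 CPM) also differed there. Of the B-cell sums Ighm alone had 1.42 and 1482 CPM, and of the mesenchymal sums Sparc alone had 2279 and 3176 CPM. In Malat1-/- 8 of 9 B-cell markers, 7 of 11 mesenchymal and 0 of 13 acinar markers were higher. The part of these 3 marker sets in this result and in that for Rnh1 was not tested. Rnaset2a and Rnaset2b, although lysosomal, were not called in this class, with ratios of 0.787 and 0.824 whose intervals include 1. Among other ribonucleases Rnaseh2c was called higher (41.8 and 64.4 CPM) and Smg6 (127 and 66.0 CPM) and Cnot6l (70.9 and 44.5 CPM) lower.

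Over 17 profiles of a class in a library, which share libraries and differ in depth, the genes most like each member were found among 6336 genes by the correlation of log2 CPM with 10 CPM added. For Rnase4 they were Sphkap, Tmod2, Chga, Vdr and Slc30a8, with Pearson's r of 0.92 down to 0.90, and Ang had 0.88. For Ang they were 1810008I18Rik, Serpina10, Rnase4, Sphkap and Nkx2-2, with r of 0.91 to 0.88. Rnaset2a and Rnaset2b were most like each other (r of 0.97), and Stim1, Nebl, Rtp4 and Fuca1 followed for both, with r of 0.80 to 0.88. For Rnh1 they were Wdr61, Fjx1, Nelfe, Agpat2 and Dbi, with r of 0.87 to 0.79. Rnh1 had an r of -0.27 with Rnase4 and -0.33 with Ang. These values are descriptions.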

How the data were processed

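Islet suspensions were profiled with 10x Genomics 3-prime version 3 single-cell RNA sequencing, per the labels. The authors deposited unfiltered matrices of raw UMI counts (32285 genes, 6794880 barcodes); per the file headers they came from Cell Ranger 4, while the submitters' processing notes name Cell Ranger 2.1.0 and mm10. The 5 genes, the marker lists and the gene lists were chosen with earlier results of these data known.

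Barcodes of at least 1000 UMIs were kept. Of these, 355 with over 20% mitochondrial UMIs were removed, and Scrublet (scanpy 1.11.5) removed 23 wild-type and 7 Malat1-/- doublets; any that remain were not counted. The cells were clustered jointly (2000 variable genes without the 5 genes, Malat1, sex-linked and mitochondrial genes; 30 components, 15 neighbours, Leiden resolution 1, igraph 0.11.9; mixed clusters divided at 0.5) and named from 14 marker lists by a score of at least 0.6 with 3 markers at 20 CPM or more. Clusters stayed unnamed if mixed with insulin, led by more markers of another class among 10 leading genes, or shallow. These limits, the last made stricter once, were set after a first clustering and levels of the 5 genes had been seen, as was the rule that a class with a median log2 ratio of 0.5 or more from 0 (acinar-like) is not compared.

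For each class, a library's UMIs were added up and expressed as CPM after TMM normalization in edgeR 4.0.16 under R 4.3.3; acinar-like, PP-like, ductal-like and mesenchymal-like levels use total counts. Intervals are exact Poisson (levels), conditional (ratios) or Clopper-Pearson (shares) at 95%. In simulated beta-like data 100% of 40 genes raised 2-fold and 0 of 1442 unchanged genes were called; those counts varied by counting error only. Named list genes are all called ones, at most 6 per list, and up to 3 others by level. Coordinates come from GENCODE M21, where 32158 identifiers were found.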

Additional observations from a re-analysis of the deposited data

Results flagged for a closer look

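The log2 ratio of Rnase4, Malat1-/- to wild type, had opposite signs in classes of the same libraries: 0.93 in beta-like cells, 1.53 in delta-like cells and 6.41 in B-cell-like cells, against -0.61 in alpha-like cells and -2.13 in endothelial-like cells. With 1 library per genotype the difference between classes was not tested. The value in B-cell-like cells became 2.42, and that in endothelial-like cells 0.93, once cells with Ins2 above 2% of their UMIs were left out, an alternative chosen after the insulin levels had been seen. In B-cell-like cells it was also 1.77 with a minimum of 5000 UMIs per barcode, 2.60 with doublets kept and 3.91 with the libraries clustered alone. Alpha-like cells of the libraries lay mostly in different clusters, and in the cluster they share Rnase4 had 697 CPM against 798 CPM in Malat1-/-.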

How the results depend on the processing

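No paired analysis was possible because each genotype has 1 library. In beta-like cells Rnase4 stayed higher and Ang, Rnaset2a and Rnaset2b lower in all 10 alternatives, while Rnh1 was lower in 9 of 10. Log2 ratios that moved beyond counting error were as follows. With a minimum of 5000 UMIs Rnase4 was 0.82, Ang -0.65, Rnaset2a -1.20, Rnaset2b -1.13 and Rnh1 0.071. With total-count scaling they were 0.74, -0.72, -1.30, -1.23 and -0.23, and with the mean of per-cell CPM 0.84, -0.64, -1.26, -1.22 and -0.32. With mixed clusters kept Rnase4 was 0.87, Ang -0.58, Rnaset2a -1.02 and Rnaset2b -0.83. With the libraries clustered alone Rnase4 was 0.90, and with a minimum set per library Rnaset2a was -1.05. The numbers of genes called higher and lower, 27 and 34, became 9 and 75 with total-count scaling, 76 and 80 with hormone, mitochondrial and Malat1 UMIs left out of the library size, 69 and 74 with a minimum of 20 CPM and 459 and 704 with none. In endothelial-like cells the log2 ratio of Rnase4 turned from -2.13 to 0.11 at Leiden resolution 2, to 0.44 with the mean of per-cell CPM and to 0.93 without insulin-rich cells. The cause of these moves was not tested, other than the 76 of 85 UMIs in 1 cell. In B-cell-like cells the log2 ratio of Rnase4 went from 6.41 to 1.77 with a minimum of 5000 UMIs, 2.60 with doublets kept, 3.91 with the libraries clustered alone and 2.42 without insulin-rich cells. Few UMIs of Rnase4 limit its ratios outside beta-like and alpha-like cells, with 30 in wild-type delta-like, 3 in B-cell-like and 2 in T- or NK-like cells.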

Other observations

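Some clusters stayed unnamed. One led by Sst, Rbp4 and Ly6h (9 wild-type and 37 Malat1-/- cells) had Ins2 at 244522 and 268302 CPM by total counts. In it Rnase4 stood at 234 and 493 CPM, Ang at 113 and 72.7 CPM, Rnaset2a at 312 and 168 CPM and Rnaset2b at 155 and 122 CPM. One led by Fabp5, Bcl2a1b and Ifitm1 (5 and 12 cells) had Rnaset2a at 358 and 691 CPM against Rnaset2b at 51.2 and 56.8 CPM, from 28 and 73 against 4 and 6 UMIs. One with the macrophage genes Lyz2 and C1qb (9 and 26 cells) had Rnh1 at 274 and 240 CPM and Rnaset2a at 71.5 and 102 CPM.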
